A study of Arabidopsis thaliana with 13 samples.

Results

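WRKY genes encode plant transcription factors that carry the WRKY domain, a zinc-finger domain that binds W-box DNA. The 71 members described here are all nuclear protein-coding genes of Arabidopsis thaliana that the RefSeq gene table names WRKY with a number, by symbol (67 genes) or by synonym (4 genes), among 27444 such genes. The synonym matches were WRKY1 (ZAP1 in the table), WRKY16 (TTR1), WRKY44 (TTG2) and WRKY63 (ABO3). The genes were chosen by name, and each was then called bound or not from the measured positions of peaks in 3 lists. The family was taken up with earlier results of these data known, so binding is described here and not tested.

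Chromatin immunoprecipitation sequencing was done on whole seedlings of ecotype Columbia to learn where the blue-light receptor CRY2 and the growth-promoting bHLH factors PIF4 and PIF5 meet the genome in weak blue light. Seedlings grew in white light to an age of 5 days and then spent 16 h in low blue light, in all groups. Each line carried 1 tagged transgene: 3xFlag-6xHis-CRY2 under the UBQ10 promoter, PIF4-3xFlag-6xHis, or PIF5-Flash(9xMyc-6xHis-3xFlag), the promoters of the PIF transgenes not being given in the sources used here. The 13 libraries formed 6 groups, a FLAG group of 2 (CRY2), 3 (PIF4) or 2 (PIF5) libraries and an IgG control group of 2 for each line. The CRY2 precipitation used 18 g of material and a second cross-linker, against 2 g and none for the PIFs, so that protein and protocol cannot be told apart when CRY2 is set beside a PIF. The values are 3 peak lists, each made from pooled replicates, with 7320 (CRY2), 9925 (PIF4) and 3767 (PIF5) peaks. Pooling leaves no replicate error for any value below, and sequencing depth is not given in the lists. Each peak carries the authors' fold enrichment over control, which is ranked only within its list, where rank 1 is the strongest peak. A percentile near 100 also marks a strong peak of its list.

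WRKY factors are best known from immunity. Pathogen patterns perceived at the cell surface activate MAP kinase cascades, WRKY proteins are phosphorylated or newly made, and WRKY factors then activate or repress defence genes, often including each other's. Other members act in leaf senescence, phosphate supply, abscisic acid responses, trichomes, seeds and stems. PIFs bind G-box and related DNA elements and promote elongation, and CRY2 reaches chromatin through partner proteins. Neither the strand of the genes nor any sequence was used here, so a summit is described as inside or outside a gene and never as upstream or downstream.

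A gene was called bound when it was the protein-coding gene nearest to the summit of a peak, within 3 kb. By this rule CRY2 was bound at 27 of the 71 members (38.0%, 95% Wilson interval 27.6 to 49.7), where 22.1% of all genes were bound. PIF4 was bound at 41 members (57.7%, 46.2 to 68.5), against 28.7% of all genes. PIF5 was bound at 30 members (42.3%, 31.5 to 53.8), against 11.9% of all genes. Intervals cover counting error only. The shares of bound members were thus above the share of all genes for each protein, and PIF4 was bound at the most members. The order of the proteins depended on the length of their lists: when each list was limited to as many of its strongest peaks as the shortest list has, CRY2 was at 17 members, PIF4 at 23 and PIF5 at 30, where 12.1%, 12.2% and 11.9% of all genes were bound.

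WRKY genes had wide spaces around them. The median WRKY gene was 2110 bp long, close to the 2078 bp of all genes, but the spaces to its neighbours on both sides summed to a median of 4146 bp, against 1855 bp for all genes. Among the 7317 genes whose length and spaces both fell in the middle range of the family (its 10 to 90 percentiles), CRY2 was bound at 28.7%, PIF4 at 38.7% and PIF5 at 17.0%. The 47 members in those ranges were bound in 38.3%, 55.3% and 42.6% of cases. Members bound by no protein had smaller spaces around them (median 3087.5 bp, 26 genes) than members bound by at least 1 (5111 bp, 45 genes). The part of the wide spacing in the counts was not tested.

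Other families of transcription factors were placed beside the WRKY genes by the same naming rule. The 125 MYB genes were bound by CRY2, PIF4 and PIF5 in 24.8%, 41.6% and 16.8% of cases, and the 99 NAC genes in 27.3%, 38.4% and 17.2%. Of the 36 genes named ERF or DREB with a number, CRY2 was bound at 18 (50%), PIF4 at 22 (61.1%) and PIF5 at 14 (38.9%). Family members under other names were not counted, so these 36 genes need not stand for their whole family. The WRKY shares were above those of the MYB and NAC genes for each protein. Beside the ERF and DREB genes they were lower for CRY2 and PIF4 and higher for PIF5, and the differences between families were not tested.

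**Figure D1:**
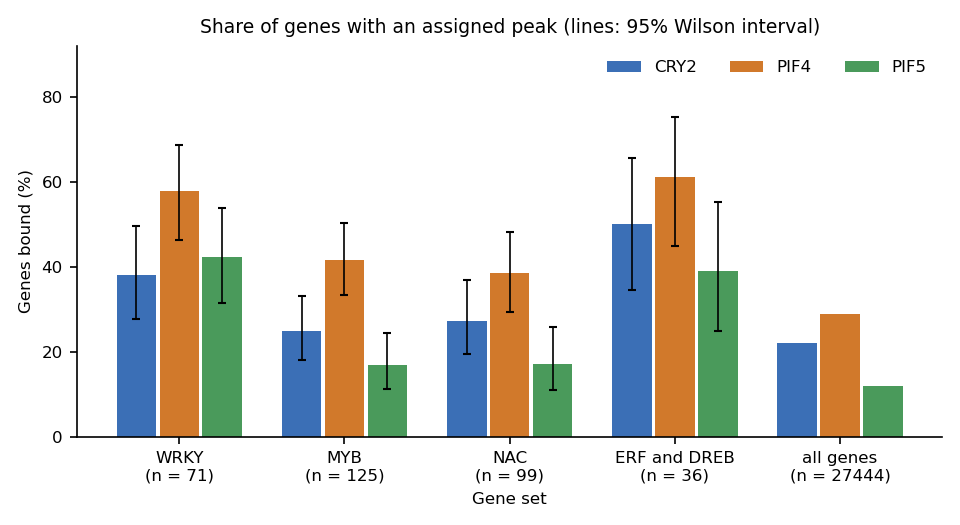
Share of genes (y axis, percent) with a peak assigned by the nearest-gene rule, for each protein (colours) in 4 families of transcription factor genes, found by name, and in all nuclear protein-coding genes (x axis). Error bars are 95% Wilson intervals; WRKY genes reached 38.0% for CRY2, 57.7% for PIF4 and 42.3% for PIF5, against 22.1%, 28.7% and 11.9% of all genes.

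The 3 proteins met at 17 members (23.9%), where 7.21% of all genes held all 3. These were WRKY1, WRKY6, WRKY7, WRKY11, WRKY15, WRKY17, WRKY22, WRKY28, WRKY36, WRKY40, WRKY45, WRKY47, WRKY48, WRKY51, WRKY53, WRKY57 and WRKY67. Both PIFs without CRY2 were at 11 members (15.5%, against 3.92% of all genes), WRKY3, WRKY8, WRKY13, WRKY14, WRKY27, WRKY29, WRKY31, WRKY38, WRKY42, WRKY65 and WRKY72. CRY2 with PIF4 but not PIF5 was at WRKY18, WRKY21, WRKY49, WRKY61, WRKY63 and WRKY69 (8.45%, against 6.39%). CRY2 with PIF5 but not PIF4 was at WRKY23 and WRKY33 (2.82%, against 0.459%). PIF4 alone was at 7 members (9.86%, against 11.2%), WRKY2, WRKY25, WRKY41, WRKY44, WRKY54, WRKY59 and WRKY66, and CRY2 alone at WRKY39 and WRKY60 (2.82%, against 8.0%). No member had PIF5 alone, a state held by 0.281% of all genes.

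No peak was assigned to the remaining 26 members (36.6%, against 62.5% of all genes). They were WRKY4, WRKY9, WRKY10, WRKY12, WRKY16, WRKY19, WRKY20, WRKY24, WRKY26, WRKY30, WRKY32, WRKY34, WRKY35, WRKY43, WRKY46, WRKY50, WRKY55, WRKY56, WRKY58, WRKY62, WRKY64, WRKY68, WRKY70, WRKY71, WRKY74 and WRKY75. Among them are the seed-size gene WRKY10, the pollen gene WRKY34, the stem gene WRKY12, and WRKY16 and WRKY19, whose proteins join a WRKY domain to an immune receptor. They also include WRKY46 and WRKY70, which work with BES1 in brassinosteroid-promoted growth. By function, 3 of 16 members linked to basal immunity were unbound, 2 of 8 senescence genes, and 4 of 8 genes of seed, pollen and shoot development.

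**Figure D2:**
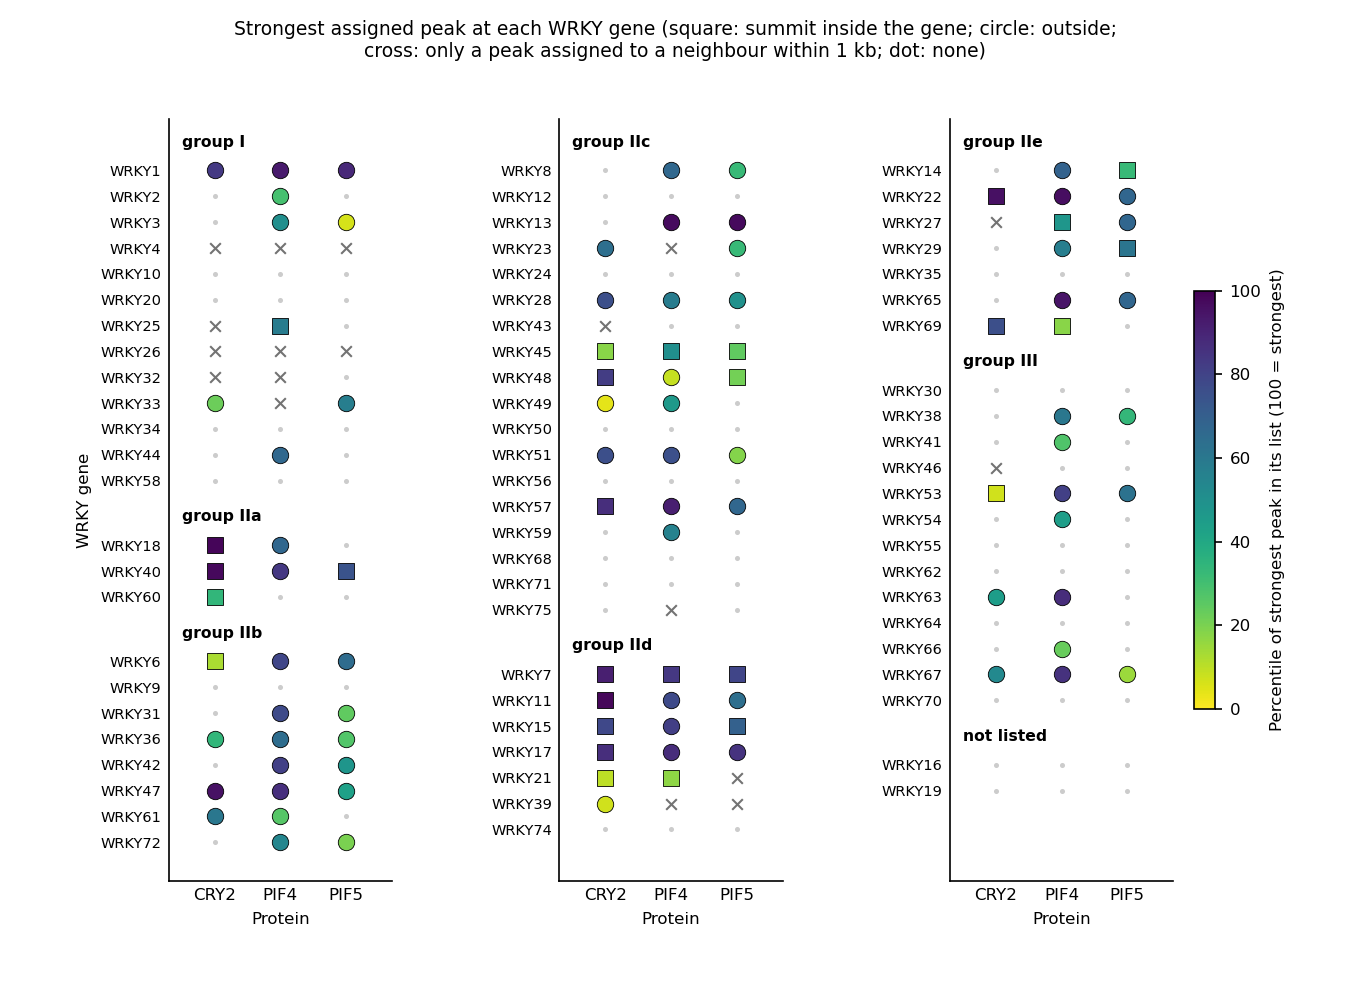
Strongest assigned peak of CRY2, PIF4 and PIF5 (x axis) at each of the 71 WRKY genes (y axis), arranged by structural group, with colour giving the percentile of fold enrichment within the list (100 is the strongest peak). Squares are summits inside the gene, circles summits outside, crosses a peak that lies within 1 kb but was assigned to a neighbour, and small dots no peak; group IId holds squares for CRY2 at 5 of its 7 genes, and 26 genes hold no square or circle.

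A member can lie beside a peak that belongs by distance to its neighbour. When any part of a peak within 1 kb of the gene counted, CRY2 was at 32 members, PIF4 at 46 and PIF5 at 33, where 32.3%, 41.7% and 17.8% of all genes had such a peak. All 3 proteins then lay at 23 members (32.4%, against 12.2% of all genes) and none at 22 (31.0%, against 48.6%). The gain came from WRKY4 and WRKY26, which went from no protein to all 3, from WRKY21, WRKY23, WRKY27, WRKY33 and WRKY39, which each gained what they lacked, and from WRKY25, WRKY32, WRKY43, WRKY46 and WRKY75, which gained 1 or 2 proteins. WRKY59, WRKY61 and WRKY67 lost proteins, since summits up to 3 kb away had been assigned to them. At WRKY67 all 3 peaks lay beyond 1 kb, with the CRY2 summit 1740 bp from the gene. The peaks gained were mostly of middling fold. WRKY4 lay beside peaks of ELF5A-1 of 2.47 (CRY2), 2.54 (PIF4) and 2.36 (PIF5). WRKY26, a heat tolerance gene, lay beside PIF4 peaks of 3.38 and 2.42, a CRY2 peak of 2.30 and a PIF5 peak of 2.19. WRKY21 gained a PIF5 peak of 2.17 and WRKY27 a CRY2 peak of 2.30. These values belong to peaks shared with the next gene, as do the CRY2 peaks near WRKY32 (2.35) and WRKY43 (2.27) and the PIF4 peaks near WRKY32 (2.35) and WRKY75 (2.35).

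WRKY33, the factor needed for camalexin synthesis and for resistance to the grey mould Botrytis, had much stronger peaks near it than assigned to it. By the nearest gene it had 2 CRY2 peaks, both of fold enrichment 2.13 (rank 5393 of 7320), and PIF5 peaks of 2.50 and 2.15, but no PIF4 peak. Stronger peaks within 1 kb of it were assigned to AT2G38465: a PIF4 peak of 4.47 (rank 201 of 9925; chromosome 2, 16106445 to 16108871) and a PIF5 peak of 4.43 (rank 102 of 3767; 16106116 to 16107527). That PIF4 peak reached into WRKY33 itself, overlapped its outer CRY2 peak and both its PIF5 peaks, and was the strongest PIF4 peak within 1 kb of any member. Its summit lay 1108 bp from the gene.

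The 4 strongest CRY2 peaks at members lay inside genes of immune regulators. Its best ranks among the members were at WRKY18 (3.85, rank 100 of 7320; chromosome 4, 15383119 to 15384945), WRKY11 (3.60, rank 142; chromosome 4, 15289444 to 15292111), WRKY40 (3.56, rank 145; chromosome 1, 30383052 to 30384164), WRKY22 (3.22, rank 284; chromosome 4, 522510 to 523292) and WRKY47 (3.16, rank 325; chromosome 4, 743882 to 744524). The first 4 summits were inside the gene and that of WRKY47 was 655 bp outside it. WRKY18 and WRKY40 are pathogen-induced repressors that work together, WRKY11 limits resistance to bacteria, and WRKY22 acts below the flagellin receptor. WRKY7, a relative of WRKY11, followed at 2.93 (rank 588). Over all 41 CRY2 peaks at members the fold ranged from 2.03 to 3.85, with a median of 2.41, against 2.29 for the whole list.

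Of the 5 strongest PIF4 members, WRKY22 was also among those of CRY2. WRKY13, which acts in stem development, had 4.32 (rank 278 of 9925; chromosome 4, 18328434 to 18332481), WRKY22 4.20 (rank 371; chromosome 4, 524862 to 525947), WRKY65 4.04 (rank 513; chromosome 1, 10234866 to 10239385), WRKY1 3.89 (rank 686; chromosome 2, 1717402 to 1718116) and WRKY57 3.78 (rank 839; chromosome 1, 26056800 to 26059789). WRKY57 is known for drought tolerance and for delaying leaf senescence induced by jasmonate. All 5 summits were outside the gene, between 122 bp (WRKY1) and 1104 bp (WRKY22) from it. Over the 56 PIF4 peaks at members the fold ranged from 1.94 to 4.32, with a median of 2.61, against 2.46 for the list.

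PIF5 was led by WRKY13 too. Its 5 best ranks were at WRKY13 (4.50, rank 93 of 3767; chromosome 4, 18331373 to 18332434), WRKY1 (3.40, rank 411; chromosome 2, 1717486 to 1718065), WRKY17 (3.17, rank 551; chromosome 2, 10439995 to 10441471), WRKY7 (2.95, rank 771; chromosome 4, 12571519 to 12572187) and WRKY40 (2.80, rank 957; chromosome 1, 30384410 to 30385972). WRKY13 was the only bound member among the strongest 10% of PIF5 peaks (3.33% of bound members, against 10.7% of all bound genes). The corresponding shares were 22.2% against 11.5% for CRY2 (6 members) and 12.2% against 11.7% for PIF4 (5 members). At WRKY13 neither rule found a CRY2 peak. The PIF4 peak of WRKY13 also overlapped a CRY2 peak of 2.12, which was assigned to PLS. The 42 PIF5 peaks ranged from 1.99 to 4.50, with a median of 2.29, against 2.40 for the list.

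The peaks at bound members ranged from weak to strong within their lists. For each bound gene the strongest peak was taken. For CRY2 its median percentile was 75.9 (95% order-statistic interval 34.0 to 86.9). PIF4 had a median of 66.8 (56.2 to 81.2), and PIF5 one of 53.7 (32.7 to 66.8). Over all bound genes the medians were 53.0, 54.6 and 53.2. Several peaks at 1 gene raise this value, and members more often had several: 40.7% of members bound by CRY2, against 16.0% of all genes it bound, with 31.7% against 19.0% for PIF4 and 33.3% against 11.6% for PIF5. Ranked anew within the upper 50% of each list, the medians were 66.4 for CRY2, 54.9 for PIF4 and 35.1 for PIF5. At least 3 peaks of 1 protein were found at 3 members for CRY2 and at 2 each for PIF4 and PIF5. No share of all genes is given for at least 3 peaks, so these counts have no background here.

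Summits inside the gene were most frequent for CRY2, at members as over all genes. Inside the gene lay 23 of 41 CRY2 summits (56.1%, 95% Wilson interval 41.0 to 70.1), 13 of 56 PIF4 summits (23.2%, 14.1 to 35.8) and 16 of 42 PIF5 summits (38.1%, 25.0 to 53.2). For all genes these shares were 60.4%, 34.0% and 36.5%. Between 1 and 3 kb away lay 14.6%, 26.8% and 21.4% of the summits at members, against 7.40%, 15.2% and 14.1% for all genes. By strongest peak, 15 of 27 members had the CRY2 summit inside, 6 of 41 the PIF4 summit and 7 of 30 the PIF5 summit. Of the 23 members bound by CRY2 and PIF4, 10 had the strongest CRY2 summit inside and the strongest PIF4 summit outside, 4 had both inside, 9 both outside, and 0 the reverse. CRY2 and PIF5 had both inside at 5 and both outside at 8 of 19 members, and PIF4 and PIF5 had both inside at 2 and both outside at 20 of 28. The PIF4 share inside fell to 8.0% with lists of equal size and to 11.8% in the upper 50% of the list. No values over all genes are given for these PIF4 shares, the counts by strongest peak or the joint positions. Over all genes, too, CRY2 summits lay inside more often (60.4%) than PIF4 summits (34.0%).

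**Figure D3:**
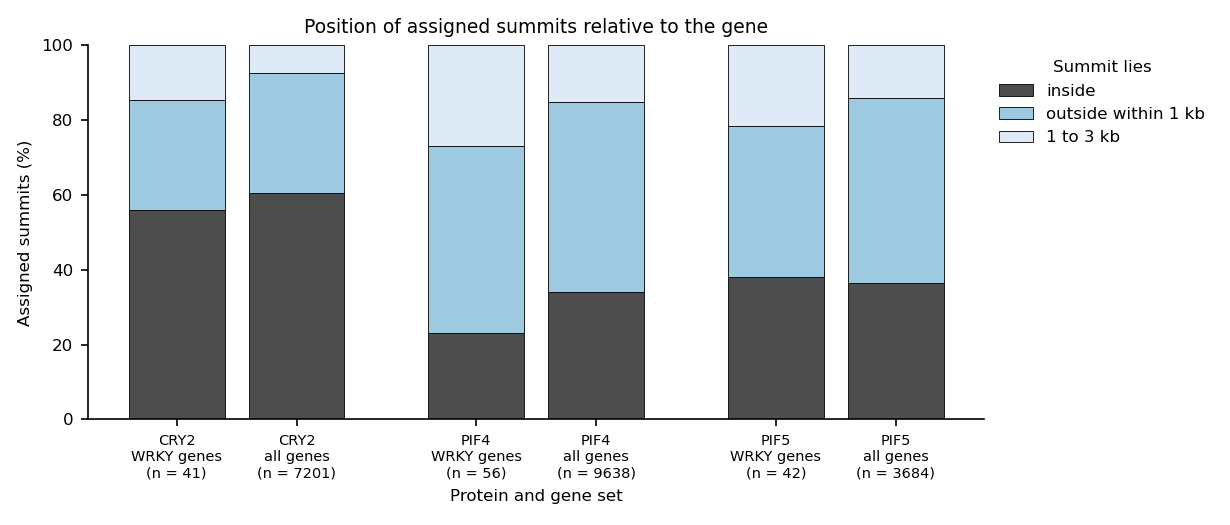
Position of assigned summits (y axis, percent of summits) for each protein at WRKY genes and at all genes (x axis), divided into summits inside the gene, outside within 1 kb, and 1 to 3 kb away. CRY2 summits at WRKY genes were inside in 56.1% of cases, PIF4 summits in 23.2% and PIF5 summits in 38.1%.

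CRY2 peaks at WRKY genes mostly touched a PIF peak. Of the 41, 34 overlapped a PIF4 peak by at least 1 bp (82.9%, 95% Wilson interval 68.7 to 91.5; whole list 60.4%) and 31 a PIF5 peak (75.6%, 60.7 to 86.2; whole list 33.0%). By gene, 24 of the 27 members bound by CRY2 had such an overlap (88.9%), against 63.4% of all genes bound by CRY2, and 14.0% of all genes were called by this rule. The exceptions were WRKY18, WRKY21 and WRKY60. The count was 15 with summits within 100 bp, a setting for which no share of all genes is given. In the other direction 26 of 56 PIF4 peaks (46.4%) overlapped a CRY2 peak, close to the 40.7% of the whole list, and 33 (58.9%) overlapped a PIF5 peak, against 35.1%. Of 42 PIF5 peaks, 40 overlapped a PIF4 peak (95.2%, against 96.4% of the list) and 27 a CRY2 peak (64.3%, against 60.0%), both near the shares of the whole list.

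Overlap alone does not place the summits together, because some peaks were long. The PIF4 peak at WRKY17 was 5183 bp wide and covered 3 CRY2 peaks, and the longest PIF5 peak at a member, that of WRKY11, was 3990 bp. Peaks wider than 2000 bp made up 14.3% of PIF4 peaks at members, against 7.72% of its list. For CRY2 the shares were 7.32% against 2.01%, and for PIF5 9.52% against 6.93%. The median CRY2 peak at members was 715 bp wide, against 579 bp in its list. The part of peak width in the overlap shares was not tested. Counting overlapping peaks of neighbouring genes too, summits of CRY2 and PIF4 peaks lay a median of 137 bp apart at members (37 pairs; 114 bp for all pairs), those of CRY2 and PIF5 91.5 bp (32 pairs; 105 bp), and those of PIF4 and PIF5 45 bp (43 pairs; 32 bp).

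At 11 members, of the 17 with all 3 proteins, summits of CRY2, PIF4 and PIF5 fell within 100 bp of each other (64.7%, against 40.3% of all genes with 3 proteins, and 2.91% of all genes). The closest were at WRKY51 (15 bp; CRY2 peak at chromosome 5, 25907892 to 25908280), WRKY36 (16 bp; chromosome 1, 26279048 to 26279443), WRKY47 (17 bp; chromosome 4, 743882 to 744524) and WRKY17 (36 bp; chromosome 2, 10440086 to 10440832). WRKY36 is a repressor of HY5, a central gene of light responses. Its peaks at this place were of modest strength, with 2.18 for CRY2, 2.74 for PIF4 and 2.18 for PIF5. Stronger peaks within 1 kb of WRKY36, of 2.81, 3.82 and 2.89, were assigned to AT1G69800. Of the 12 such meeting points, 2 were inside a gene, at WRKY6 and WRKY45, and WRKY6 had a further one outside. The other members with a meeting point were WRKY1, WRKY22, WRKY28, WRKY57 and WRKY67.

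**Figure D4:**
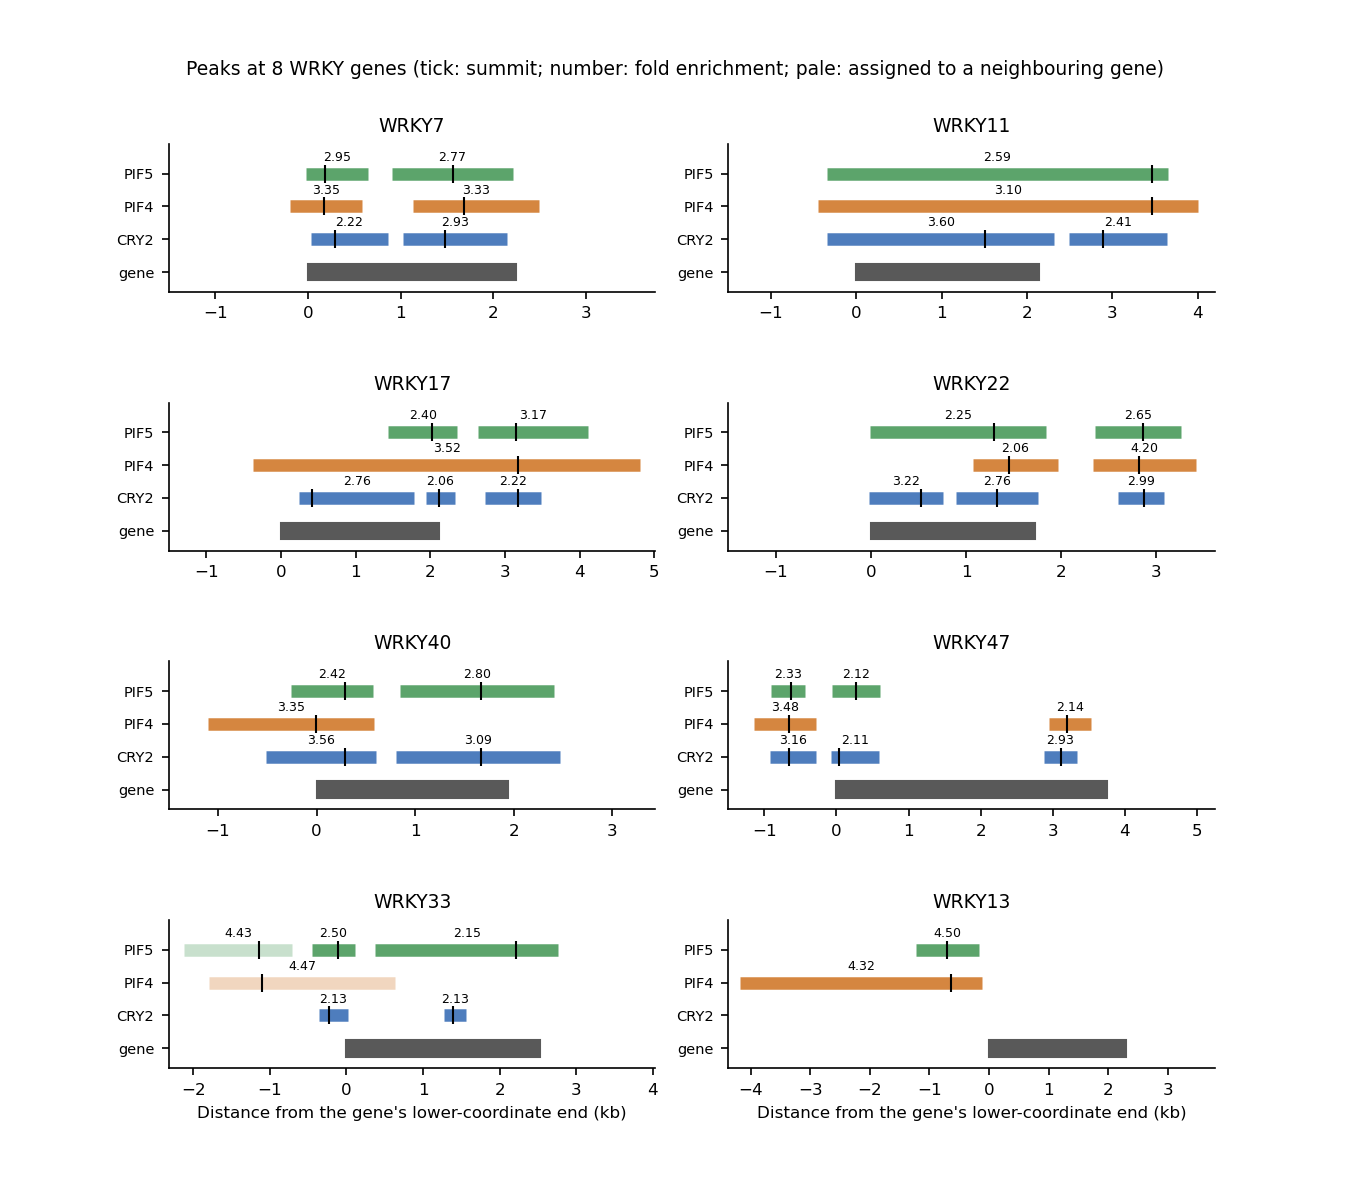
Peaks of CRY2, PIF4 and PIF5 (coloured bars, with the summit as a tick and fold enrichment printed above) around 8 WRKY genes (grey bars), against distance in kb from the end of the gene with the lower coordinate; pale bars were assigned to a neighbouring gene. At WRKY40 and WRKY22 the CRY2 and PIF5 bars inside the gene lie over each other, at WRKY11 the PIF summits lie outside the gene beside the strongest CRY2 peak within it, and at WRKY33 the PIF bars of 4.47 and 4.43 are pale.

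Ranks followed each other between the PIFs more than between CRY2 and a PIF, as a description across genes that share libraries and regions. Spearman's rho of the strongest-peak percentile was 0.63 for PIF4 and PIF5 (28 genes; 0.60 over 3055 genes of the whole lists), 0.43 for CRY2 and PIF4 (23 genes; 0.18 over 3733) and 0.48 for CRY2 and PIF5 (19 genes; 0.20 over 2106). WRKY53 and WRKY6 had weak strongest CRY2 peaks (2.06 and 2.08), whereas their strongest PIF4 peaks were 3.23 and 3.15. At WRKY6 these CRY2 and PIF4 peaks lay at different places, and the PIF4 peak that overlapped the CRY2 peak of 2.08 had 2.12. A second CRY2 peak at WRKY6, of 2.07, overlapped the PIF4 peak of 3.15, with summits 43 bp apart. WRKY48 had the opposite order, with a strongest CRY2 peak of 2.64 (percentile 82.2) and a strongest PIF4 peak of 1.95 (percentile 8.87). These did not overlap, but a second PIF4 peak of 1.94 overlapped the CRY2 peak of 2.64, with summits 2028 bp apart.

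**Figure D5:**
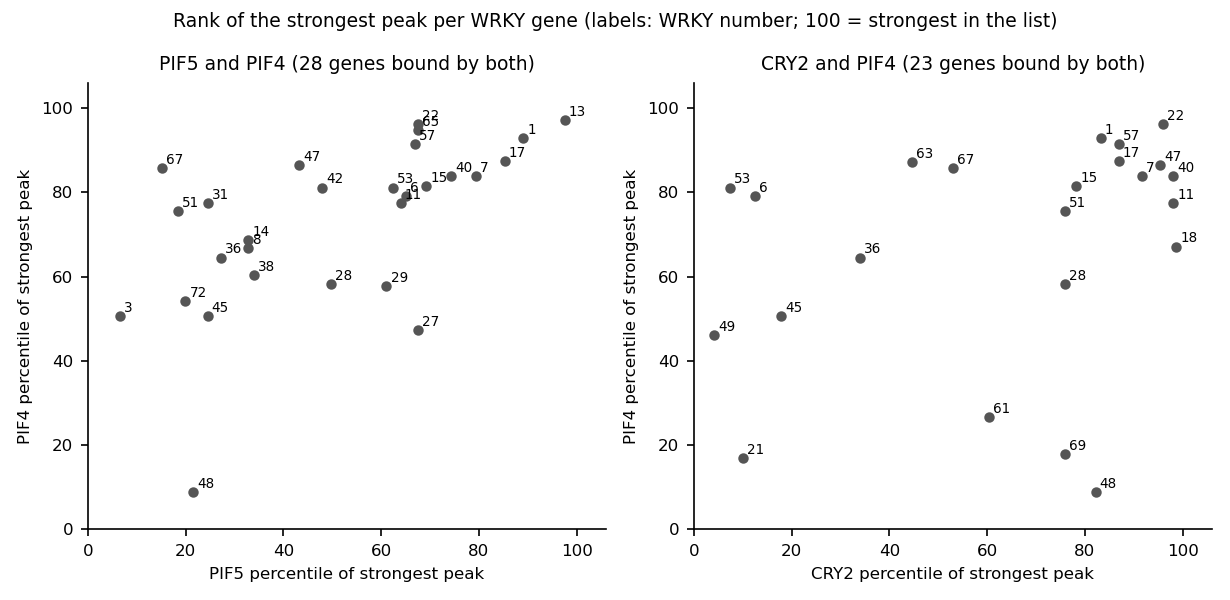
Percentile of the strongest peak within its list at WRKY genes bound by both proteins of a pair, PIF4 (y axis) against PIF5 (left) and CRY2 (right), with each point labelled by WRKY number. WRKY13 and WRKY1 lie high for both PIFs, and WRKY48 lies high for CRY2 and low for PIF4.

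Group IId, whose proteins bind calmodulin, had the highest share of members bound by CRY2 among groups of over 3 genes. CRY2 was bound at 6 of its 7 members (all but WRKY74), PIF4 at 5 and PIF5 at 4, against 22.1%, 28.7% and 11.9% of all genes. WRKY7, WRKY11, WRKY15 and WRKY17 held all 3 proteins. WRKY11 and WRKY17 are close relatives that both limit basal resistance, and both had CRY2 peaks inside and outside the gene. At WRKY11 CRY2 had 3.60 inside and 2.41 outside the gene, and at WRKY17 2.76 inside, with 2.06 and 2.22 outside. Their strongest PIF4 peaks were 3.10 and 3.52, and their strongest PIF5 peaks 2.59 and 3.17, with all 4 summits 1028 to 1326 bp outside the gene. WRKY17 alone had a second PIF5 peak, inside the gene (2.40), and a CRY2 summit within 100 bp of both PIF summits. WRKY7 instead had 2 peaks of each protein, all with summits inside, of 2.93 and 2.22 for CRY2, 3.35 and 3.33 for PIF4, and 2.95 and 2.77 for PIF5. WRKY15, linked to leaf growth and osmotic stress responses, had 2.57, 3.24 and 2.69. WRKY39 had only a weak CRY2 peak (2.06), and the PIF4 and PIF5 peaks over it (2.83 and 2.23) were assigned to CLPS3.

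The shares of all genes, 22.1% for CRY2, 28.7% for PIF4 and 11.9% for PIF5, stand beside every group that follows. Group IIa, the partners WRKY18, WRKY40 and WRKY60, had CRY2 at all 3 genes with summits inside, at 3.85, 3.56 and 2.18. PIF4 was at WRKY40 (3.35) and WRKY18 (2.81), and PIF5 at WRKY40 alone (2.80). At WRKY40 the 2 CRY2 summits coincided with the 2 PIF5 summits to within 0 and 9 bp, whereas the PIF4 summit lay 6 bp outside the gene, 299 bp from the first of these. At WRKY18 the PIF4 summit was 578 bp outside the gene, and its peak did not overlap that of CRY2.

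In group IIb PIF4 was bound at 7 of 8 members (87.5%), PIF5 at 6 (75%) and CRY2 at 4 (50%), with all 3 proteins at 3. It holds WRKY6 and WRKY42, repressors of the phosphate exporter gene PHO1, which had strongest PIF4 peaks of 3.15 and 3.23 and strongest PIF5 peaks of 2.61 and 2.38. WRKY47 had strongest CRY2, PIF4 and PIF5 peaks of 3.16, 3.48 and 2.33, and the summits of the first and second lay 2 bp apart. WRKY9 was the unbound member. In group IIe PIF4 was bound at 6 of 7 members (85.7%), PIF5 at 5 (71.4%) and CRY2 at 2 (28.6%). WRKY22 and WRKY29, which act together below the flagellin receptor, differed. WRKY22 held 3 CRY2 peaks (3.22, 2.99 and 2.76) beside strongest PIF4 and PIF5 peaks of 4.20 and 2.65. WRKY29 had no CRY2 peak, a PIF5 peak of 2.55 with its summit inside the gene, and 2 PIF4 peaks. The stronger PIF4 summit (2.60) lay 2362 bp outside WRKY29, and the PIF4 peak that overlapped the PIF5 peak had 2.14.

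In group IIc CRY2 was at 7 of 18 members (38.9%), PIF4 at 9 (50%) and PIF5 at 8 (44.4%), close to the shares of the whole family for CRY2 and PIF5, and 8 members were unbound. The phosphate gene WRKY45 had 2.12, 2.47 and 2.16 for CRY2, PIF4 and PIF5, all inside the gene, and a second CRY2 peak (2.07) overlapped PIF4 and PIF5 peaks of 3.85 and 2.68 that were assigned to AT3G01980. WRKY28, a regulator of salicylic acid synthesis, had 2.53, 2.61 and 2.40. WRKY51, which acts in the repression of jasmonate signalling, had 2.53, 3.04 and 2.12, and WRKY57 had strongest peaks of 2.76, 3.78 and 2.64. WRKY48, a negative regulator of basal defence, had a PIF5 peak of 2.14 in addition to the CRY2 and PIF4 peaks given above. WRKY23, an auxin-responsive gene of root development, had CRY2 at 2.39 and PIF5 at 2.23, and a PIF4 peak of 3.57 within 1 kb was assigned to UPB1.

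In group I, with 2 WRKY domains per protein, CRY2 was bound at 2 of 13 members (15.4%), and in group III at 3 of 13 (23.1%), against 22.1% of all genes. Within 1 kb of a CRY2 peak, however, lay 6 members of group I, so that its place below all genes did not hold under that rule (32.3% of all genes). PIF4 was bound at 5 members of group I and 7 of group III, and PIF5 at 3 in each. Of group I, WRKY1 stood highest, with 2.66, 3.89 and 3.40, and WRKY44, a gene of trichomes and the seed coat, had a PIF4 peak alone (2.79). WRKY25 and WRKY26, which act with WRKY33 in heat tolerance, had their CRY2 peaks (2.26 and 2.30) assigned to neighbouring genes. In group III the senescence gene WRKY53 had 2.06, 3.23 and 2.57, and WRKY67 had 2.30 for CRY2, 3.44 for PIF4 and a weak PIF5 peak (rank 3157 of 3767). Members of group III that lie near each other can share a neighbourhood: WRKY54 and WRKY55 are adjacent, 919 bp apart, and WRKY67, WRKY64 and WRKY63 lie within a few genes of each other. WRKY16 and WRKY19 are in no group list and were unbound. Differences between groups were not tested, and the groups hold from 3 to 18 genes.

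Arranged by known function, the 16 members linked to basal immunity were bound by CRY2 at 10, by PIF4 at 11 and by PIF5 at 10, with all 3 at 7. The 8 senescence genes were bound at 5, 6 and 5, the 4 phosphate genes at 2, 3 and 3, and the 5 genes of abscisic acid and drought responses at 5, 4 and 2. Of the 8 genes of seed, pollen and shoot development, CRY2 was bound at 1, PIF4 at 3 and PIF5 at 2. WRKY46, WRKY54 and WRKY70 work with BES1 in brassinosteroid-promoted growth, and CRY2 and PIF5 were bound at none of them. WRKY54 had PIF4 peaks of 2.37 and 2.35, WRKY70 none by either rule, and WRKY46 only a CRY2 peak of 2.13 assigned to SDH8. The functions overlap, so a gene can count in several, and these counts stand against 22.1%, 28.7% and 11.9% of all genes.

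Genes that act above, beside and below WRKY factors were listed as well, 26 in all, and CRY2 was bound at 12 (46.2%), PIF4 at 15 (57.7%) and PIF5 at 5 (19.2%), where 22.1%, 28.7% and 11.9% of all genes were bound. Among 10 MAP and calcium-dependent kinases CRY2 was at 5, PIF4 at 6 and PIF5 at 1. MPK3, a kinase of WRKY33, had a CRY2 peak of 3.27 inside the gene (rank 259) and a PIF4 peak of 2.45 outside it. MPK6, its partner kinase, had 2.40 and 1.92. Of 5 receptors and co-receptors CRY2 was at 2, PIF4 at 3 and PIF5 at 2. The flagellin receptor FLS2 had a weak CRY2 peak (2.05) and a PIF4 peak of 3.44.

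The 3 VQ genes listed, MKS1, SIB1 and SIB2, encode proteins that bind WRKY factors, and each was bound by CRY2 and by PIF4. Other VQ genes were not examined. Within 1 kb, PIF4 was at all 3, but CRY2 at 2, without SIB1, where 41.7% and 32.3% of all genes had such a peak. SIB1, a partner of WRKY33, had peaks of 2.13, 3.76 and 2.53, and PIF5 was at SIB1 alone. Of 4 salicylic acid regulators CRY2 was at 1, PIF4 at 3 and PIF5 at 1. PAD4 had all 3 proteins inside the gene, at 2.24, 3.03 and 2.53, and NPR1 had none. The 4 genes listed as WRKY targets, PAD3, CYP71A13, FRK1 and PR1, held a single bound gene, PR1 with a CRY2 peak of 2.57. That CRY2 share (25%) was near the 22.1% of all genes. The nearest-gene counts of these 3 lists stand against 22.1% (CRY2), 28.7% (PIF4) and 11.9% (PIF5) of all genes.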

How the data were processed

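The deposited data are peak lists in which the authors pooled the replicates. CASAVA 1.8.2, Bowtie2 2.1.0, MACS2 2.0.10 and TAIR10 appear in the submitters' processing notes, which state no roles. The strength is the deposited ratio, the fold enrichment over control. The deposited -log10 p entered 1 alternative ranking, and the deposited score was not used. Summits are the deposited offsets.

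Peak coordinates are TAIR10, counted from 1. Genes came from the RefSeq table of TAIR10.1. Its frame was checked: 49.3% of PIF4 summits lay outside genes within 1 kb of one, against 20.2% after a shift of 2000 bp. Equally near genes were resolved to the first by start, which touched 0 member summits. Steps used Python 3.11.15, numpy 2.4.6, pandas 2.3.3, scipy 1.17.1 and matplotlib 3.10.9, and were checked on simulated peaks.

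The members and lists were chosen with earlier results of these data known, and the 100 bp meeting points, the other families and the length ranges after values were seen. Named were every member's state, the 5 best ranks per list, members with all 3 proteins or with CRY2 or PIF5 alone, members whose state changed between rules, and the highest of each pathway list; other genes were named after their values were seen. Groups and functions came from general knowledge of the family.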

Additional observations from a re-analysis of the deposited data

How the results depend on the processing

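Of 86 values recomputed under 11 alternative settings, 69 stayed within 1.5 times the count or within its interval, and 17 did not. In the upper 50% of each list, CRY2 was at 17 members (23.9%, against 11.8% of all genes), PIF5 at 16 (22.5%, against 6.27%) and all 3 proteins at 9; a CRY2 peak overlapped a PIF peak at 14, and within 1 kb CRY2 was at 21 and PIF5 at 18. The PIF4 median percentile was 54.9 and its share inside genes 11.8%. The PIF5 median there, 35.1, stayed within its interval and is not among the 17. With lists of equal size, CRY2 was at 17 (23.9%, against 12.1% of all genes) and PIF4 at 23 (32.4%, against 12.2%). All 3 were at 11, overlaps at 15, and within 1 kb CRY2 was at 21 and PIF4 at 28. The PIF4 median was 51.2 and its share inside 8.0%. Overlaps with summits within 100 bp were at 15. These lists hold fewer peaks by construction, except that of PIF5 at equal size. For all 3 proteins, for overlaps and within 1 kb, shares of all genes under the alternative settings are not given. Those counts therefore have no background here. Bound under each of 5 nearest-gene alternatives were 14 members for CRY2, 18 for PIF4 and 14 for PIF5. The share of all genes bound under each of them is not given, so these counts have no background either. No paired analysis was possible because the replicates are pooled in each list. Leaving out single replicates could not be done for the same reason. Plants without a tag are not analysed here, so the level that a FLAG precipitation gives at these genes without a tagged protein was not measured.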

Other observations

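RRS1, whose synonym in the gene table is ATWRKY52 and which the naming rule therefore left out, had no peak of CRY2, PIF4 or PIF5 by the nearest gene, but a peak of each within 1 kb.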
